A study of Mus musculus with 6 samples.

Results

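Transcripts of 37 marker genes of Kupffer cells and of the leukocytes that circulate through the liver were followed in the livers of male mice fed a soy-enriched or a regular diet. A gene was represented by the brightest of its probes on the array, taken through the RefSeq accession that the array gives for each probe that is not a control. All 37 genes were found, among 22911 genes with a probe. The study compared 3 control mice, given granulated regular food alone, with 3 soy mice, whose granulated food was 75% regular food and 25% soy bean powder. Both groups ate their diet for 4 weeks and were 12 weeks old in the methods' description of the groups. Their strain is not given in the sources used here. RNA of a piece of the right hepatic lobe was hybridised to a 1-colour array, 1 array per mouse, so that the values describe whole tissue rather than sorted cells.

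Kupffer cells are the resident macrophages of the liver sinusoids. They take up bacteria, worn red cells and debris from portal blood through scavenger, complement and Fc receptors, and break them down in lysosomes. Monocytes, neutrophils, T cells, B cells and natural killer cells pass through the same sinusoids or settle there, and their marker transcripts are measured in the same piece of tissue. In such tissue, fewer cells of a type and less RNA per cell cannot be told apart.

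The arrays lay on 3 slides, by the barcode in the header of the scanner output. Slide 1 held control 1, control 2 and soy 1, slide 2 held soy 2 alone, and slide 3 held control 3 and soy 3. Slide and diet could therefore be estimated together, whereas a slide and the mice it held cannot be told apart. Between 36366 and 38163 spots per array were well above background in control livers, against 31308 to 32498 in soy livers. Of the 37 markers, 34 were well above background on all 6 arrays. The exceptions were Ccr2, the chemokine receptor of inflammatory monocytes, on 3 control arrays and 1 soy array, Cd79a, a signalling chain of the B cell receptor, on 2 control arrays and no soy array, and Cd8a, the co-receptor of cytotoxic T cells, on none.

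Transcripts of the labelled tissue and of Kupffer cells were present, and those of neutrophils in part. Hepatocyte transcripts such as Alb and Ttr and the Kupffer cell transcripts Clec4f, Cd5l, Vsig4, Marco and Timd4 stood well above background in all 6 livers. Of the neutrophil markers, S100a8 and S100a9 were well above background on every array, as were the granule genes Camp, Elane, Mmp8 and Lcn2. Mpo was so on the 3 control arrays alone and Retnlg on 2 control and 3 soy arrays, and Ngp, Ltf, Mmp9 and the chemokine receptor Cxcr2 on none.

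The transcription factor PU.1, the product of Spi1, sets much of the macrophage gene programme, and its core binding letters were looked for in the promoters of the markers. RefSeq promoters (GRCm38.p6, 250 bases before to 50 after the start) were available for 30 of the 37 genes. The letters GAGGAAGT or their reverse complement ACTTCCTC were in the promoters of 4 of the 30 genes (13.3%), C1qc, Ctss, Ly6c2 and S100a8, against 3.69% of 27025 genes. The shorter letters GAGGAA or TTCCTC, which are part of the longer ones, were in 22 of the 30 (73.3%), against 31.3% of all genes. These 22 included the lymphocyte markers Cd3e, Cd3d, Cd8a, Cd79a and Gzma, so the shorter letters were not particular to macrophage genes. Clec4f, Timd4, Cd163, Lyz2, Fcer1g, Ccr2, S100a9 and Nkg7 lacked them. A match describes the letters in this window and not a bound site. The following windows of 60 bases lie before the start of genes described below and are shown because their markers had among the larger slide or diet differences, with the matched letters in capitals.
C1qc, chr4:136893076-136893135, minus strand: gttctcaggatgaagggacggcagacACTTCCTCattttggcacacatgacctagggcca
Ly6c2, chr15:75112046-75112105, minus strand: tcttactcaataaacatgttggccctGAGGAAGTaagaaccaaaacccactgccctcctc
S100a8, chr3:90668873-90668932, plus strand: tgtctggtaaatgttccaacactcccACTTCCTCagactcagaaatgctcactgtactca
Marco, chr1:120505137-120505196, minus strand: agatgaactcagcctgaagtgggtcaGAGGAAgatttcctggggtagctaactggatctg
Itgam, chr7:128062530-128062589, plus strand: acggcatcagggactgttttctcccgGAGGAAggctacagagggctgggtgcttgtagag

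None of the 37 markers passed the test for soy against control. The test was limma's, with the Benjamini-Hochberg method over 56605 probes, and called those with an adjusted p under 0.05 whose fold was above 1.5 or under 0.66. In all, 198 probes (0.35%) passed, 118 of them higher in soy (0.208%) and 80 lower (0.141%), a split of 59.6% higher that became 90.8% with the scanner's processed signal, and 105 genes passed by their brightest probe (0.458%). The smallest adjusted p among the markers was 0.266, for Itgam. At an unadjusted p under 0.05 stood 3 markers, Itgam, Cd3d and Ptprc, whereas 14.3% of all genes did. The soy mean was above the control mean for 29 markers and below it for 8, with a median log2 change of 0.12, whereas 48.8% of all genes were above 0, with a median of -0.01. The number above 0 fell to 19 without control 1 and 20 without soy 3. In 4 markers, Ptprc, Itgam, Cd3d and Gzma, every soy value lay above every control value, and in no marker below (9.67% and 10.8% of all genes).

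The diet difference was also read within a slide. On slide 1, where soy 1 lay with control 1 and control 2, 26 markers were higher in soy, with a median log2 difference of 0.07. On slide 3, where soy 3 lay with control 3, 26 were higher, with a median of 0.18, and 23 markers had the same sign on both slides. With the slide as a block the median log2 change was 0.08, and no marker passed. With arrays scaled by a shift to their 75th percentile in place of quantile normalization, the median was 0.16 for the markers and 0.11 for all genes. The median of the markers was 0.03 without soy 3, 0.04 without control 1 and 0.27 without control 3. Without each array in turn, only Itgam and Cd3d kept their sign and stayed within 1.5 times of their diet change, and 35 of the 37 markers moved further with at least 1 array.

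The markers lay higher on slide 3 than on slide 1. In the model with diet and slide together, 33 of the 37 markers had a positive log2 difference of slide 3 over slide 1, with a median of 0.33, against 48.9% of all genes and a median of -0.0047. None passed, with a smallest adjusted p of 0.666, in a comparison in which no probe at all did (0%) and which rests on 2 residual degrees of freedom. At an unadjusted p under 0.05 stood 11 markers, whereas 7.95% of all genes did. In 17 markers both slide 3 values lay above all 3 slide 1 values, and in none below them (10.1% and 11.8% of all genes). The median was 0.16 without soy 1 or without soy 3, and 0.21 without control 1, so that the size of the slide difference moved with single arrays. By the same limit of 1.5 times, 27 of the 37 markers moved further in their slide difference.

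Array by array, control 1 held the lowest value of 22 of the 37 markers and soy 3 the highest of 20. Among 13498 genes well above background and with a value on all arrays, 20.4% were lowest on control 1 and 19.2% highest on soy 3. The median deviation of the markers from their own mean over the 6 arrays was -0.29 on control 1, -0.03 on control 2, 0.08 on control 3, -0.10 on soy 1, 0.08 on soy 2 and 0.24 on soy 3 (log2). Control 1 and soy 3 thus stood at the 2 ends, on different slides and different diets. These ranks were looked at after the values were seen.

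**Figure D1:**
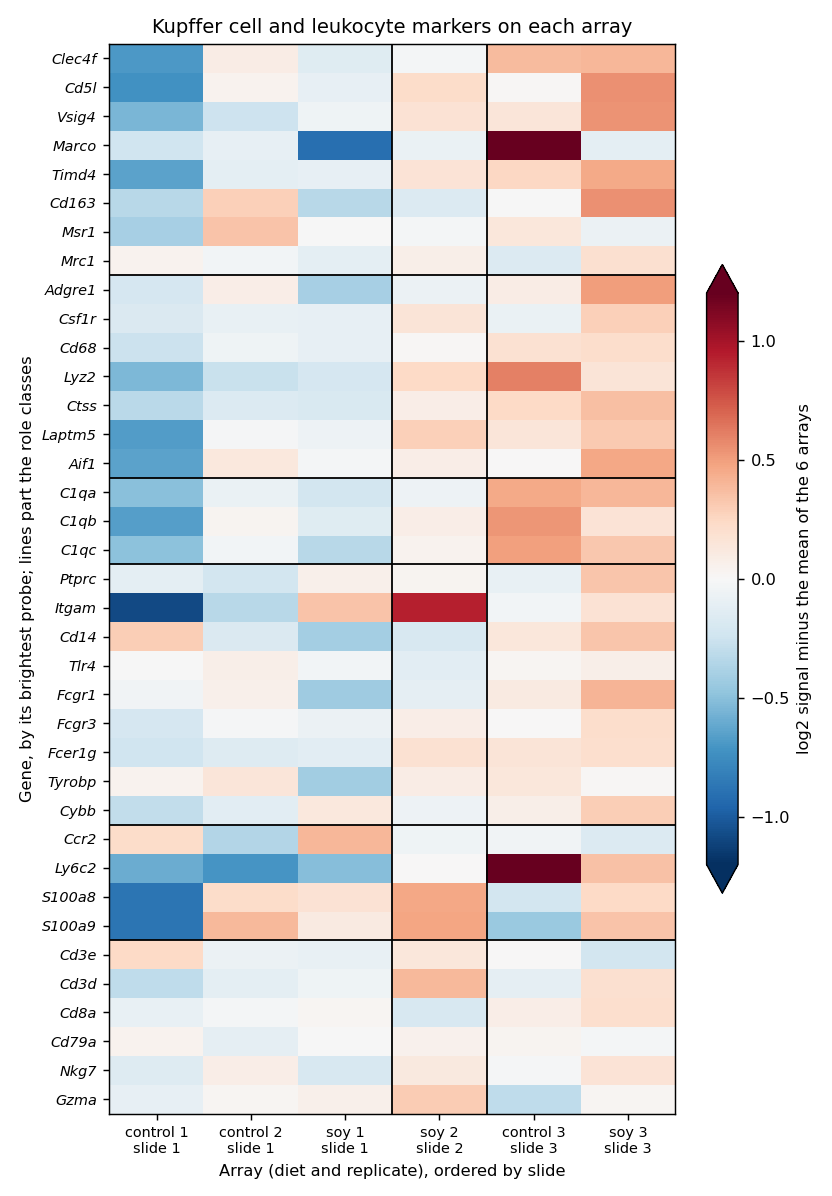
Log2 normalized signal of the 37 markers minus their mean over the 6 arrays (colour scale from -1.2 to 1.2, with 2 markers beyond it), with genes in rows and arrays in columns ordered by slide. The control 1 column is mostly below the mean, and the soy 3 column mostly above it.

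The Kupffer cell and scavenger receptor genes did not pass for either comparison, and all 8 lay higher on slide 3. Their median log2 difference was 0.52 between slides and 0.12 between diets, and for Clec4f, Vsig4 and Timd4 the values of slide 3 lay above all of slide 1. Clec4f, the C-type lectin that marks Kupffer cells in the mouse, read 12.96, 13.74 and 14.04 (log2 normalized signal) in control 1 to 3 and 13.50, 13.62 and 14.05 in soy 1 to 3. Its diet groups overlapped, at 13.58 ± 0.55 (SD, n = 3) in control and 13.73 ± 0.29 (SD, n = 3) in soy (log2 change 0.15, SE 0.28, adjusted p = 0.880), and the values of slide 3 were the 2 highest. The slide difference was 0.62 (SE 0.24, adjusted p = 0.666), a fold of 1.54.

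Cd5l, a secreted scavenger protein of tissue macrophages, read 13.33, 14.10 and 14.07 in control livers and 13.96, 14.28 and 14.60 in soy livers. Soy 2 and soy 3 were above all control values, and soy 1 was not. Its log2 change was 0.45 (SE 0.24, adjusted p = 0.539), 0.24 within slide 1 and 0.54 within slide 3, and it was 0.20 without control 1 and 0.29 without soy 3. Vsig4, the complement receptor of Kupffer cells, had a log2 change of 0.43 (SE 0.21, adjusted p = 0.491) and Timd4, a receptor for dying cells, one of 0.34 (SE 0.24, adjusted p = 0.639). Without control 1 the diet changes were 0.27 for Vsig4 and 0.11 for Timd4, and without soy 3 they were 0.27 and 0.20. Their slide differences were 0.56 and 0.60.

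Marco, a scavenger receptor for bacteria, had the lowest diet change of the markers. It read 11.02, 11.16 and 12.70 in control livers and 10.36, 11.19 and 11.14 in soy livers. Control 3 was far above the other arrays and soy 1 below them, and the other 4 values lay close together. The log2 change of -0.73 (SE 0.45, adjusted p = 0.589) was -0.73 within slide 1 and -1.56 within slide 3, and the log2 difference between slides was 1.26 (SE 0.21, adjusted p = 0.666). Without control 3 the diet change of Marco was -0.20 and its slide difference 0.78. The haemoglobin scavenger receptor Cd163, the scavenger receptor Msr1 and the mannose receptor Mrc1 had diet changes between -0.06 and 0.10. A second probe of Cd163, well above background on 2 control arrays and 1 soy array, gave -0.10, against 0.03 by the brightest.

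**Figure D2:**
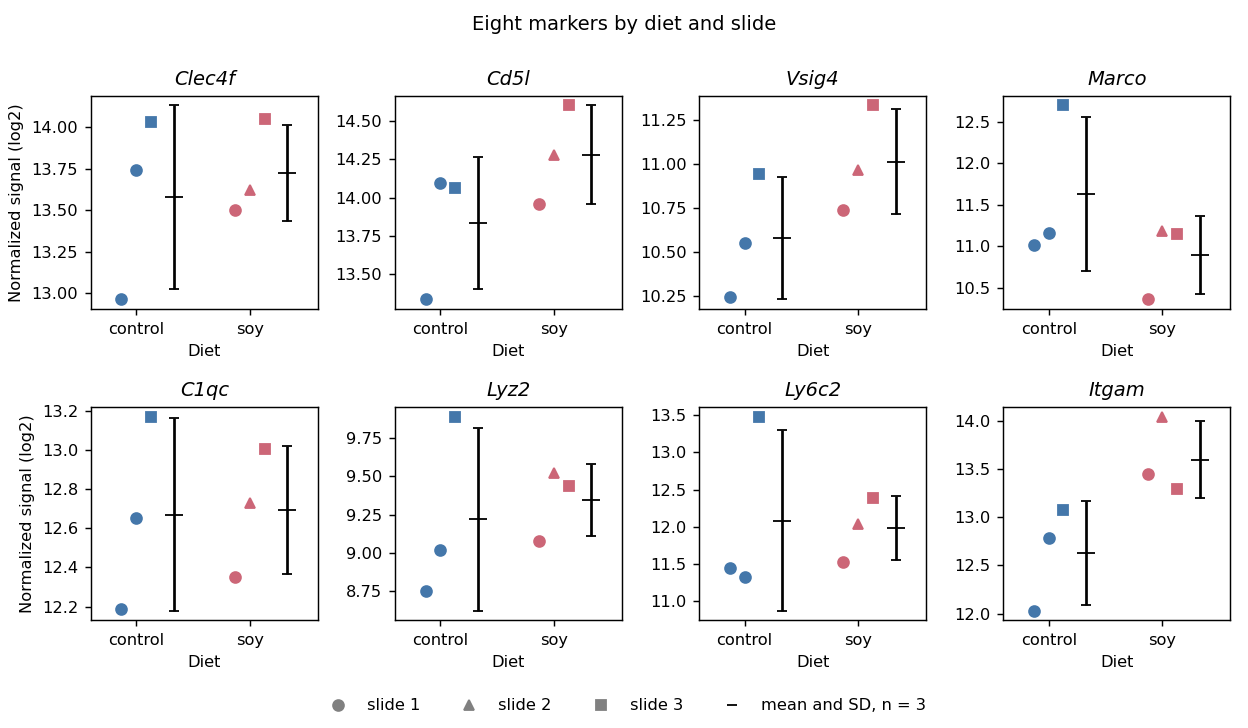
Log2 normalized signal of 8 markers by diet, 1 point per mouse with the slide as the symbol, beside the mean and SD of each diet (n = 3). In Clec4f, Vsig4, C1qc, Lyz2 and Ly6c2 the squares of slide 3 lie above the circles of slide 1 (for example Clec4f 14.04 and 14.05 against 12.96 to 13.74), and in Itgam every soy point lies above every control point.

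The general macrophage and lysosome genes were all higher in soy by their means, with a median log2 change of 0.17 and none that passed, and all 7 higher on slide 3, with a median of 0.44. In 6 of the 7, all but Aif1, slide 3 lay wholly above slide 1. Adgre1, which encodes the macrophage surface protein F4/80, read 10.60, 10.89 and 10.90 in control and 10.42, 10.74 and 11.31 in soy livers. Soy 1 was the lowest array and soy 3 the highest, so that the soy range enclosed the control range. Its log2 change of 0.03 (SE 0.22, adjusted p = 0.978) was -0.33 within slide 1 and 0.41 within slide 3, and turned to -0.01 with slide as a block.

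Lyz2, the lysozyme of macrophages and neutrophils, read 8.75, 9.02 and 9.89 in control and 9.08, 9.53 and 9.44 in soy livers. The control values spread from the lowest to the highest of all arrays. Its slide difference was 0.73 (SE 0.19, adjusted p = 0.666), a fold of 1.66, whereas its diet change was 0.13 (SE 0.28, adjusted p = 0.900). Without control 3 the slide difference of Lyz2 was 0.36. The lysosomal protease Ctss had a slide difference of 0.51 and the lysosomal membrane protein Cd68 one of 0.33, with diet changes of 0.17 and 0.08. Laptm5, another lysosomal membrane protein, and Aif1, a calcium-binding protein of activated macrophages, had diet changes of 0.35 and 0.34, and both were 0.11 without control 1. Csf1r, the receptor for the growth factor that keeps macrophages alive, had a diet change of 0.23 (SE 0.12, adjusted p = 0.523) by its brightest probe, or 0.15 without soy 3, and 0.43 by its other probe.

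The 3 chains of C1q, the first component of the classical complement pathway and a macrophage product, had larger differences between slides than between diets, although none passed. Slide 3 lay wholly above slide 1 in C1qa, C1qb and C1qc, with log2 differences of 0.69, 0.61 and 0.71, whereas their diet changes were 0.08, 0.07 and 0.02. Without control 3 the slide difference of C1qb was 0.31, while those of C1qa and C1qc stayed within 1.5 times of their value without each array in turn. C1qa read 10.90, 11.32 and 11.85 in control and 11.18, 11.34 and 11.80 in soy livers. C1qc, whose promoter window is shown above, read 12.19, 12.65 and 13.17 in control and 12.35, 12.73 and 13.003 in soy livers. Both genes had control 3 as the highest array and control 1 as the lowest. The folds between slides were 1.61 for C1qa and 1.63 for C1qc, both with an adjusted p of 0.666.

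Receptors, adaptors and the oxidase of myeloid cells held the largest diet change of the markers. Itgam, the integrin chain of Mac-1 on monocytes, neutrophils and some macrophages, read 12.03, 12.78 and 13.08 in control and 13.45, 14.04 and 13.29 in soy livers. No soy value fell among the control values, although soy 3 exceeded control 3 by only 0.21. The means were 12.63 ± 0.54 (SD, n = 3) and 13.59 ± 0.40 (SD, n = 3), a fold of 1.95 (log2 change 0.96, SE 0.29, adjusted p = 0.266), and 0.69 with slide as a block. A second, dimmer Itgam probe of another RefSeq transcript gave a log2 change of -0.40 (adjusted p = 0.350) and was well above background on 3 control arrays and 1 soy array. What each Itgam probe measures was not checked against its sequence.

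Ptprc, the phosphatase CD45 found on all leukocytes, read 9.48, 9.37 and 9.50 in control and 9.65, 9.63 and 9.92 in soy livers. All soy values were above all control values, by a narrow margin for soy 1 and soy 2. The log2 change was 0.28 (SE 0.11, adjusted p = 0.406), or 0.19 without soy 3, and the dimmer probe gave 0.03. The other 7 genes of the class, the endotoxin receptors Cd14 and Tlr4, the Fc receptors Fcgr1 and Fcgr3, the signalling adaptors Fcer1g and Tyrobp and the oxidase subunit Cybb, had diet changes between -0.21 and 0.24. On slide 3, all 9 genes of the class were higher than on slide 1, with a median of 0.23, and Fcgr1, Fcgr3 and Fcer1g were without overlap.

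The monocyte and neutrophil markers did not share a pattern, and none passed. Ly6c2, a surface protein of inflammatory monocytes, read 11.44, 11.33 and 13.48 in control and 11.52, 12.04 and 12.39 in soy livers. Control 3 stood far above every other array, and soy 3 was next. Its slide difference of 1.57 (SE 0.28, adjusted p = 0.666), a fold of 2.97, was the largest of the markers on all arrays. Its diet change was -0.10 (SE 0.55, adjusted p = 0.962). Without control 3 the slide difference of Ly6c2 was 0.86, below those of Adgre1 (0.897) and Cd163 (0.88), and its diet change 0.60. Ly6c1 is a near-identical neighbour, so that the probe may not separate the 2 genes.

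S100a8 and S100a9 encode the partner chains of calprotectin, a protein of neutrophils and monocytes. S100a8 read 7.96, 9.05 and 8.61 in control and 9.01, 9.29 and 9.07 in soy livers. S100a9 read 9.09, 10.36 and 9.52 in control and 10.08, 10.44 and 10.31 in soy livers. In both genes control 1 was the lowest array and soy 2 the highest, and control 2 lay within the soy range. Their diet changes were 0.58 (SE 0.26, adjusted p = 0.445) and 0.62 (SE 0.29, adjusted p = 0.482), folds of 1.497 and 1.53. Without control 1 they were 0.29 for S100a8 and 0.33 for S100a9. Their slide differences were 0.09 and -0.02.

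The T, B and natural killer cell markers had a median log2 change of 0.04 for diet and 0.09 for slide. Cd3e, a chain of the T cell receptor complex, read 12.03, 11.72 and 11.79 in control and 11.70, 11.93 and 11.57 in soy livers, with groups that overlapped (log2 change -0.11, SE 0.13, adjusted p = 0.797). Cd3d, another chain of the same complex, read 7.72, 7.91 and 7.91 in control and 7.97, 8.40 and 8.21 in soy livers. Here every soy value was above every control value (log2 change 0.35, SE 0.13, adjusted p = 0.377), and a second probe gave 0.33, whereas the second probe of Cd3e gave -0.38. Cd3e read far brighter than Cd3d, and what the Cd3e probes measure was not checked against their sequences. Gzma, a protease of natural killer and cytotoxic T cells, read 8.38, 8.50 and 8.17 in control and 8.53, 8.78 and 8.50 in soy livers. All soy values were above all control values, soy 1 and soy 3 by a narrow margin (log2 change 0.26, SE 0.13, adjusted p = 0.506, and 0.17 without control 3 or without soy 2). Nkg7, a granule protein of the same cells, had a log2 change of 0.06, and the dim Cd8a and Cd79a had 0.02 each.

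**Figure D3:**
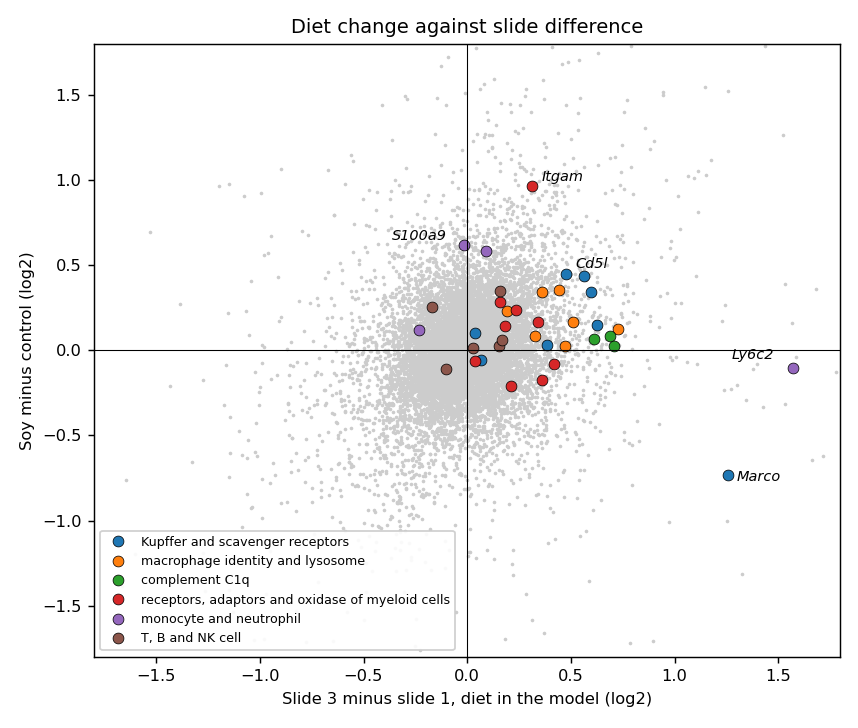
Log2 change of soy over control (y axis) against the log2 difference of slide 3 over slide 1 from the model with diet (x axis) for the 37 markers, coloured by class, over 13513 genes well above background in grey (39 lie outside the axes). The markers lie mostly to the right of 0, with Ly6c2 (1.57) and Marco (1.26) farthest, and Itgam (0.96) highest. Both axes come from the same 6 arrays.

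Genes around the markers were read from the same fit, 154 in 15 lists, of which 152 were on the array and 4 passed by their brightest probe, beside 0.458% of all genes. Tnf, the cytokine that macrophages release on endotoxin, was lower in soy livers by its brightest probe. It read 12.36, 12.32 and 13.03 in control and 10.88, 11.02 and 10.82 in soy livers, which stood well apart. The means were 12.57 ± 0.40 (SD, n = 3) and 10.91 ± 0.10 (SD, n = 3), 3.16-fold higher in control (log2 change -1.66, SE 0.19, adjusted p = 0.0257), with -1.45 within slide 1 and -2.21 within slide 3. A second Tnf probe had a log2 change of -0.00280 and was called well above background in none of the 6 livers. Both probes carry the same Tnf accession, and what each of them measures was not checked against its sequence, which was not used here. With slide as a block the log2 change of Tnf by its brightest probe was -1.78 (adjusted p = 0.104).

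Of the genes that passed, Ms4a1 and Cd79b encode surface proteins of B cells and were higher in soy livers. Ms4a1, which encodes CD20, read 6.68, 6.997 and 6.81 in control and 7.60, 7.90 and 7.78 in soy livers (log2 change 0.93, SE 0.13, adjusted p = 0.0393). Cd79b, the partner chain of Cd79a, read 7.40, 7.87 and 7.94 in control and 8.80, 9.30 and 9.02 in soy livers (log2 change 1.30, SE 0.18, adjusted p = 0.0428). In both, the diets stood apart on every array and soy 2 was highest. Ms4a1 was well above background on 2 of 3 control arrays. Cd79a itself was too dim to be called above background in the soy livers. With slide as a block neither Ms4a1 (log2 change 0.85, adjusted p = 0.184) nor Cd79b (log2 change 1.13, adjusted p = 0.162) passed.

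**Figure D4:**
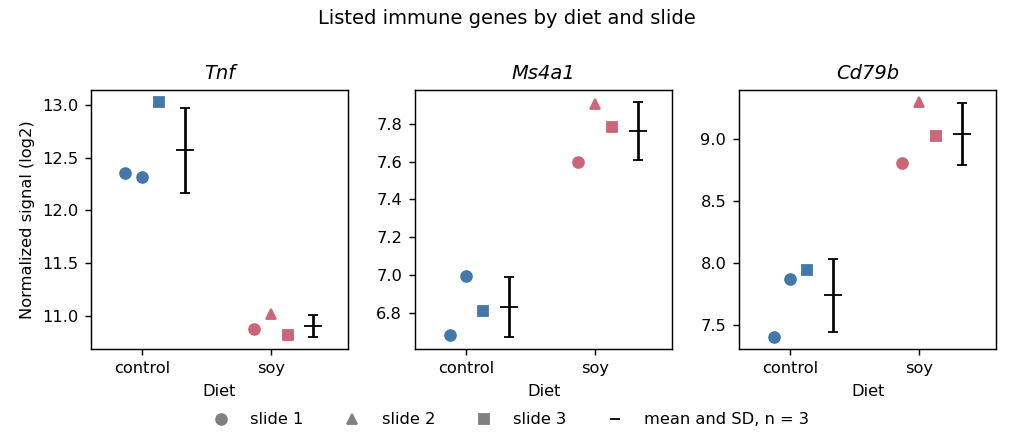
Log2 normalized signal of Tnf, Ms4a1 and Cd79b by diet, 1 point per mouse with the slide as the symbol, beside the mean and SD of each diet (n = 3). Each gene is shown by its brightest probe. The diets do not overlap in any of the 3 genes, with Tnf lower in soy (log2 change -1.66) and Ms4a1 and Cd79b higher (0.93 and 1.30).

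Of 12 further Kupffer cell genes, 7 were higher in soy by their means, with a median log2 change of 0.09, and none passed. Fabp7, a fatty acid binding protein, had a log2 change of 0.62 (adjusted p = 0.291) and Folr2, a folate receptor of resident macrophages, one of 0.46 (adjusted p = 0.390), or 0.30 without control 1. Of 12 growth factors and transcription factors of macrophages, 8 were lower, with a median of -0.12, and none passed. Irf5, a factor that drives inflammatory cytokine genes, had a log2 change of -0.69 (adjusted p = 0.257). Spi1 itself was well above background on 1 control array and no soy array.

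Of 14 genes of the TLR4 pathway and its cytokines, 11 had lower means in soy, with a median log2 change of -0.18, and Tnf alone passed, by its brightest probe. Ly96, the partner protein of TLR4 in endotoxin binding, had the next largest change, 1.04 (adjusted p = 0.179) by its brightest probe and 0.07 by the other. Of 12 genes of Fc receptor and ITAM signalling, 7 were higher (median 0.05), with Trem2 at -0.35, or -0.21 without soy 2, and Vav1 at 0.19, or 0.01 without soy 3. Trem2 was well above background on 2 of 3 soy arrays. Of 5 partners of the phagocyte oxidase, 3 were higher (median 0.03), with Rac2 at 0.32, or 0.10 without control 1. Among 9 chemokine receptor and homing genes, 6 were higher (median 0.04). Cx3cr1 was called well above background in none of the soy livers. It read 1.30-fold higher in control (log2 change -0.38, adjusted p = 0.328), and its log2 change was -0.25 without control 1. On slide 3, all 12 genes of Fc receptor and ITAM signalling and all 5 oxidase partners were higher than on slide 1, with medians of 0.15 and 0.37.

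Among 16 further lymphocyte and natural killer cell genes, 13 were higher in soy, with a median of 0.14, and 3 passed. Of the neutrophil genes on the array, 5 were higher and 5 lower (median 0.03), with Camp at -0.54 and Retnlg at 0.49. Of 11 genes of dendritic cells and antigen presentation, 7 were lower (median -0.12), with H2-Ab1 at -0.41 and H2-Eb1 at -0.40, or -0.23 and -0.19 without control 1, and 9 were lower on slide 3, with a median of -0.20. The 4 with higher means in soy included H2-Aa at 0.35 (adjusted p = 0.518) and Ciita at 0.26 (adjusted p = 0.435).

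Markers of the other cells of the liver piece were read beside these. Of 10 hepatocyte genes, 8 had lower means in soy (median -0.16), with Pck1, an enzyme of glucose production, at -0.84 (adjusted p = 0.0568) and Tat, an enzyme of tyrosine breakdown, at -0.76. On slide 3, 9 of the 10 hepatocyte genes were lower than on slide 1, with a median of -0.13, whereas 48.9% of all genes were higher. In 3 of the 10, slide 3 lay wholly below slide 1, as in 11.8% of all genes. Alb stood at -0.14 between diets, or -0.04 without soy 3, and at -0.13 between slides, or 0.03 without soy 1 or without soy 3. Of 10 stellate cell genes, 8 were lower in soy (median -0.14), with the collagens Col1a1 at -0.99, or -0.61 without control 1, and Col3a1 at -0.94. Of the endothelial genes 5 of 10 were higher (median 0.02), with Lyve1 at -0.66, or -0.04 without control 1, and Kdr at 0.31. Of the cholangiocyte genes 3 of 6 were higher (median -0.01), with Sox9 at -0.16, or -0.05 without soy 2. Cftr was called well above background in none of the soy livers. It read 1.17-fold higher in control (log2 change -0.23, adjusted p = 0.600), and its log2 change was -0.09 without soy 1. Of the adipocyte genes 1 of 5 was higher (median -0.08), with Cidec at 0.61, or 0.07 without soy 1, and Lep at -0.21, or -0.12 without control 3.

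Of the red cell and platelet genes 7 of 11 were higher in soy (median 0.06), with Alas2 at 0.42, or -0.42 without control 2, and Hbb-b1 at 0.33, or -0.17 without soy 2. Within slide 1, 3 of the 11 were higher in soy (median -0.13), and within slide 3 it was 1 of the 11 (median -0.31). Their median deviation from the mean of the arrays was highest on soy 2, 0.66, and lowest on soy 1, -0.33, and on slide 3 it was 0.05 on control 3 and -0.17 on soy 3. The part that blood, hepatocytes or the other cells had in the marker differences was not tested.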

How the data were processed

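The authors scanned 1-colour Agilent arrays of 6 livers and deposited scanner output that, per the file headers, came from Feature Extraction 11.5.1.1. Its median intensity of spot and local background is as scanned, with no scaling of 1 array to another. They also deposited a table of log2 values of the same arrays (array medians of 7.2, r of at least 0.999995 with the values computed here), whose normalization is not given in the sources used here. It was used as an alternative. The methods give median signals as the input and limma with Benjamini-Hochberg adjustment as the test.

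Median intensity was background corrected with normexp (offset 50) and quantile normalized, without control and outlier spots, and log2 values of replicate spots were averaged. Soy was compared with control in limma 3.58.1 (R 4.3.3, 4 residual degrees of freedom), and slide 3 with slide 1 in a model of diet and slide. P-values were adjusted over 56605 probes. Positive changes are higher in soy or on slide 3. The number of arrays limits the precision, and the groups of 3 were separate mice. The script was tested on simulated data. Tables and plots were made with Python 3.11.15, pandas 2.3.3 and matplotlib 3.10.9.

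Genes were named through accessions of the GRCm38.p6 RefSeq table; the arrays use another build. Of the markers, 24 had 1 probe and 13 more than 1. The markers and gene lists were chosen with earlier results of these data known. Values on every array are given for markers that passed or whose diets did not overlap, the 5 largest changes of each comparison, and Clec4f, Adgre1, Ptprc, Cd3e and S100a8; of the other lists, for genes that passed, with the 2 largest changes otherwise. Some genes that meet this rule are not reported here. Alternatives varied the background correction, normalization, probe choice, filter, blocks and arrays. Leaving out single arrays for genes outside the markers, for markers not named by this rule and for the medians of the markers was chosen after seeing the data.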

Additional observations from a re-analysis of the deposited data

How the results depend on the processing

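No marker passed for diet or slide under any alternative run, and in each of these the median of the markers stayed above 0. Leaving out 1 array gave medians of 0.03 to 0.27 for diet and 0.16 to 0.36 for slide. The 198 probes that passed for diet became 299 with a shift to the 75th percentile, 77 with an offset of 16, 493 among probes well above background, 13138 with the processed signal (11924 of them higher in soy), 24 with slide as a block and 23 (without soy 3) to 199 (without control 3) without 1 array. The replicate block gave 77 probes, 0 markers and 2 of the other listed genes. The deviations of livers with the same number correlated at 0.12, -0.06 and 0.13, and those of livers with different numbers at -0.23 to 0.12. With 3 livers per diet, these values cannot decide whether the numbers pair the mice. The 4 other listed genes that passed became 1 with an offset of 16, 13 with the processed signal, 0 with slide as a block and 0 to 2 without 1 array. For slide, 1 probe in place of 0 passed with the shift to the 75th percentile, with trend and robust in eBayes, and among probes well above background. The cause of these moves was not tested. The blocks and the left-out arrays also leave fewer arrays or degrees of freedom. Of 19 alternatives with a test, Tnf and Cd79b passed in 11 and Ms4a1 in 10.

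Small changes turned sign. Adgre1 changed by -0.0506 between diets as the mean of its probes and -0.0117 with slide as a block. With slide as a block C1qc changed by -0.11 and Lyz2 by -0.0830. Without 1 array the diet change ran from -0.22 (without soy 3) to 0.23 for Adgre1, from -0.15 (without control 1) to 0.33 for C1qa, from -0.22 (without control 1) to 0.27 for C1qc, from -0.16 (without control 1) to 0.37 for Clec4f, from -0.11 (without control 1) to 0.46 for Lyz2 and from -0.48 to 0.60 (without control 3) for Ly6c2. The slide difference ran from -0.16 (without control 3) to 0.67 for Itgam, from -0.19 (without control 1) to 0.36 for S100a8 and from -0.30 to 0.33 (without control 2) for S100a9. S100a9 differed between slides by 0.0744 with no diet term and 0.00930 with the processed signal.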

Other observations

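After B cell genes such as Ms4a1 and Cd79b were seen to be higher in soy livers, 18 further B cell genes were chosen and read from the same fit. None passed, 13 were higher in soy by their means and 5 lower, with a median log2 change of 0.21, and 11 stood well above background on each array of 1 diet or both. Bank1, a scaffold protein of B cells, had the largest positive change (0.71, adjusted p = 0.253), and Blnk, an adaptor of the B cell receptor, the largest negative one (-0.84, adjusted p = 0.329). Pax5, the factor that fixes B cell identity, had a log2 change of -0.09, or 0.08 without control 2, and Cd22 one of -0.11, or 0.10 without soy 3. At an unadjusted p under 0.05 stood 4 of the 18, beside 14.3% of all genes, and of these 3 were higher in soy and 1, Blnk, lower.

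Lcn2, an iron-binding protein of neutrophils that stressed hepatocytes also make, read 11.94, 11.39 and 11.32 in control and 9.71, 11.28 and 13.43 in soy livers. The soy values lay on both sides of the control values, and its slide difference of 1.40 (log2; 1.44 by a second probe) was -0.35 without soy 1 or without soy 3. Cxcl1, a chemokine that draws neutrophils, read 12.99, 13.62 and 10.30 in control and 11.45, 11.15 and 12.35 in soy livers, with control 3 the lowest array. Its slide difference of -1.33 (log2) was 0.90 without control 3.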
